A study of Mus musculus with 8 samples.

Results

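The genes described here are 10 members of the fibroblast growth factor (FGF) system: the ligands Fgf4, Fgf5, Fgf8, Fgf15 and Fgf17, the carrier protein Fgfbp1 and the receptors Fgfr1, Fgfr2, Fgfr3 and Fgfr4. They were chosen by gene symbol, with earlier results of these data known. All 10 were measured, by 24 of the 34945 probe sets that carry exactly 1 gene symbol, among 18193 genes in all. A probe set is a group of short probes on the array that report 1 transcript. The brightest probe set on average over the 8 arrays stands for a gene. The samples were mouse embryonic stem (ES) cells, male, of strain 129S4/Svjae, grown with leukemia inhibitory factor (LIF). In 3 samples the cells carried a lentiviral short hairpin RNA against Jmjd2b and in 2 samples one against Jmjd2c, both histone demethylases, whose array symbols are Kdm4b and Kdm4c. The 3 control samples carried a hairpin against GFP, a jellyfish protein, so all groups had lentivirus and puromycin selection in common. The sources used here do not say how many hairpins stand behind each knockdown or whether replicates were separate infections, so the p-values refer to the variation among these arrays alone, and it may be technical.

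FGF ligands are secreted proteins that bind receptor tyrosine kinases together with heparan sulfate, a sugar chain of the cell surface, and the receptors pass the signal through RAS, RAF and MEK to the kinase ERK. In mouse ES cells the main ligand of their own making is Fgf4, whose ERK signal is known to help cells leave the naive state, while Fgf5 is a classical mark of the primed epiblast that follows it. Fgf8 and Fgf17 are close relatives of the same subfamily and are known from the primitive streak and the brain organizers, Fgf15 is the mouse counterpart of human FGF19, and Fgfbp1 is a secreted protein that releases FGFs from the extracellular matrix.

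Values are probe set intensities on a linear scale. Across the 8 arrays the medians lay between 44.7 and 46.6, and between 23.9% and 25.4% of probe sets per array had an intensity under 16, so values under 16 are called dim here. Differences were tested as log2(intensity + 16) in limma with all 8 arrays in 1 fit, and a gene passed at an adjusted p (Benjamini-Hochberg over all 18193 genes) under 0.05. The hairpin targets were checked first. Kdm4b averaged 32.2 ± 16.8 in the Jmjd2b knockdown and 468 ± 157 in the control (SD, n = 3 each), and Kdm4c averaged 306 ± 232 (SD, n = 2) in the Jmjd2c knockdown and 1281 ± 63.2 (SD, n = 3) in the control. Each target was also lower on every array of the other knockdown than on every control array, without passing the test. Kdm4c averaged 734 ± 76.3 in the Jmjd2b knockdown, 57.3% of the control mean (limma, adjusted p = 0.10), and Kdm4b averaged 265 ± 28.4 in the Jmjd2c knockdown, 56.6% of it (limma, adjusted p = 0.18). Arrays stood apart in ways that the groups do not explain. A floor at an intensity of 1 marked 3 arrays (control 1, control 2 and Jmjd2b knockdown 2), with 412 to 455 probe sets on it. The other 5 arrays had 172 to 241 values below 1. Identical values also linked control 3 with Jmjd2b knockdown 1, and Jmjd2b knockdown 3 with both Jmjd2c knockdown arrays. The calls of the members are therefore also given with array type (floor or no floor) as a block and within each type that held both groups. The ratio of 3' to 5' actin probe sets, which rises with RNA degradation, was 1.31 to 1.42 in the Jmjd2b knockdown, 1.43 to 1.48 in the Jmjd2c knockdown and 1.45 to 1.63 in the control, and its part in the results was not tested.

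Promoter sequences of 6 members were found in a RefSeq table (GRCm38.p6), and those of Fgf4, Fgf5 and Fgfbp1 are shown because these 3 genes passed the test in both knockdowns, Fgf4 downward and the others upward. Fgf8, Fgf15 and Fgfr1 also passed upward in both knockdowns but had no promoter in that table. Each window runs 5' to 3' along the gene's strand from 250 bases before an annotated start to 50 bases after it, and capitals mark the motif letters found in it. The windows lie at chr7:144861136-144861435 (plus strand) for Fgf4, chr5:98253934-98254233 (plus strand) for Fgf5 and chr5:43981750-43982049 (minus strand) for Fgfbp1.
Fgf4: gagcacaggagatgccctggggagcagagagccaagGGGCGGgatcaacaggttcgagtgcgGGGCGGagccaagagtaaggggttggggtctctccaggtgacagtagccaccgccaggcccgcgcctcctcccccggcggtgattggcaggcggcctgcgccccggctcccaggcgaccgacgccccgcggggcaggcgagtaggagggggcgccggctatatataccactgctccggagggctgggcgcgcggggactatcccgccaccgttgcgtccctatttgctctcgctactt
Fgf5: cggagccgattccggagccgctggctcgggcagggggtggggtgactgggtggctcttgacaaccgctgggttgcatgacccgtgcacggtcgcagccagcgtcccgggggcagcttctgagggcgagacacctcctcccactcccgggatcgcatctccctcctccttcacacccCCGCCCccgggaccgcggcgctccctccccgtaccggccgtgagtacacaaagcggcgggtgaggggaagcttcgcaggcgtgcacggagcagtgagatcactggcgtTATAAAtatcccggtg
Fgfbp1: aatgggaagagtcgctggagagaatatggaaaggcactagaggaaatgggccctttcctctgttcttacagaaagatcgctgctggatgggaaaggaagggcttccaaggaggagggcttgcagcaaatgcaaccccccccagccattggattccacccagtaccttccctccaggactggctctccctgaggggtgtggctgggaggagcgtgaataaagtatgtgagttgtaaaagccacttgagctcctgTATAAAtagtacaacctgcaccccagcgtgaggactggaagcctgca
Both strands were searched for exact letters: TATAAA for the TATA box, GGGCGG for the GC box, ATGCAAAT for the octamer bound by Oct4, CTTTGAT or, as the second form, CTTTGAA for TCF/LEF factors, AGGTGTGA for T-box factors, and ACCGGAAGT for ETS factors. No form is contained in another. The Fgf4 window held 2 GC boxes and no TATAAA. It does hold the letters tatatata, a form that the exact search did not cover, so a lack of TATAAA is not read as a lack of a TATA box. The Fgf5 window held 1 GC box, read on the other strand, and 1 TATAAA at bases 285 to 290 of the window. The Fgfbp1 window held 1 TATAAA at bases 254 to 259 and no GC box. In both Fgf5 and Fgfbp1 the TATAAA thus lies within the 50 bases after the annotated start, and whether it acts as a TATA box was not tested. A share of 35.7% of all 32851 promoters held a GC box and 13.6% a TATAAA, and the octamer, both TCF/LEF forms, the T-box and the ETS letters, held by 1.74%, 3.73%, 5.14%, 1.28% and 1.1% of them, were not found in these 3 windows. The windows of Fgf4 and Fgf5 were 69.7% and 68.3% G and C, and that of Fgfbp1 53.3%, against a median of 52.7% over all promoters.

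The first comparison asked which FGF genes differed in cells with the Jmjd2b hairpin. Fgf5, Fgf8, Fgf15, Fgfbp1 and Fgfr1 rose and Fgf4 fell, while Fgf17, Fgfr2, Fgfr3 and Fgfr4 did not pass. That is 5 of 10 members up and 1 of 10 down, where 11.6% of all genes were called up and 12.9% down (24.4% in either direction). The median change of the 10 members was 0.83, beside -0.03 over all genes. Since the arrays hold RNA of whole cultures, a change in the share of cells that make a transcript and a change in RNA per cell cannot be told apart.

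Among the ligands, Fgf4 was the bright transcript of control cells and the one that fell. It had intensities of 451, 344 and 782 in Jmjd2b knockdown arrays 1 to 3, and 1651, 1844 and 2062 in control arrays 1 to 3. Every knockdown array lay below every control array, and the knockdown mean was 28.4% of the control mean. On the log2 scale the change was -1.86 ± 0.26 (SE; limma, adjusted p = 0.00096). With array type as a block it was -2.03, and within the floor and no-floor types it was -2.29 and -1.77, the last without passing (limma, adjusted p = 0.11). Fgf4 has 4 probe sets, and each of the 4 fell in the Jmjd2b knockdown, by 0.78 to 1.96 on the log2 scale. The smallest of these falls, -0.78 ± 0.15 (SE), was that of a probe set with 154 to 229 in the knockdown and 304 to 367 in the control.

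Fgf5 showed the opposite picture. It had 729.5, 1342 and 1919 in the Jmjd2b knockdown arrays, and 3.57, 17.5 and 6.77 in the control arrays. The control values are dim on arrays 1 and 3 and just above 16 on array 2. The transcript was thus near the low end of the scale in control cells and at a moderate to high intensity in all 3 knockdown arrays. The log2 change of 5.67 ± 0.35 (SE; limma, adjusted p = 2.27e-05) was the largest of all 18193 genes in size. Its size depends on the pseudocount, as it was 7.15 with a pseudocount of 1 and 4.16 with 64, and on the choice of probe sets, as it was 3.73 for their mean, and it was 5.73 with array type as a block and 5.73 and 5.72 within the types. A second, dimmer probe set of Fgf5 read 47.0, 68.4 and 36.4 in the knockdown and 3.31, 3.78 and 1.52 in the control, a change of 1.79 ± 0.18 (SE).

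Fgf8, read by 1 probe set, had 397, 597 and 263 in the Jmjd2b knockdown arrays and 10.1, 6.4 and 6.0 in the control arrays. All control values of Fgf8 were dim. The change was 4.14 ± 0.25 (SE; limma, adjusted p = 2.2e-05), with 4.31 under the block, 4.67 and 3.95 within the types and 2.70 with a pseudocount of 64. Its subfamily relative Fgf17 did not follow it: 231, 207 and 183 in the knockdown overlapped 154, 181 and 204 in the control. The difference of Fgf17 was 0.19, with a 95% interval of -0.14 to 0.52 (limma, adjusted p = 0.40). A second, dimmer probe set of Fgf17, with 76.7 to 106 in the knockdown and 38.9 to 69.8 in the control, gave 0.64 ± 0.19 (SE) and passed among all probe sets (limma, adjusted p = 0.04), so the probe sets of Fgf17 differ in their call.

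Fgf15 lies next to Fgf4 on chromosome 7 and moved the other way. It had 259.8, 328 and 458 in the Jmjd2b knockdown arrays and 157, 203 and 132 in the control arrays, without overlap. The knockdown mean was 2.13 times the control mean, and the change was 1.0 ± 0.22 (SE) on the log2 scale (limma, adjusted p = 0.0095). It was 1.06 under the block, and it did not pass within either type (0.82 and 1.29) or without control array 3 (0.87; limma, adjusted p = 0.050).

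Fgfbp1 had 323, 551 and 459 in the Jmjd2b knockdown arrays and 18.9, 32.8 and 24.5 in the control arrays. The knockdown mean was 17.5 times the control mean, and the change on the log2 scale was 3.46 ± 0.42 (SE; limma, adjusted p = 0.00045). With array type as a block it was 3.54, and within the types 3.78 and 3.31, the last without passing (limma, adjusted p = 0.12).

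Of the receptors only Fgfr1, the main FGF receptor of the epiblast, passed the test on its brightest probe set. It had 492, 618 and 487 in the Jmjd2b knockdown arrays and 207, 225 and 213 in the control arrays, so the groups were well apart. The change was 1.24 ± 0.14 (SE; limma, adjusted p = 0.00034), with 1.30 under the block and 1.45 and 1.14 within the types, the last without passing (limma, adjusted p = 0.11). The 3 probe sets of Fgfr1 disagreed. One with 68.9 to 71.9 in the knockdown and 34.6 to 38.9 in the control rose by 0.71 ± 0.16 (SE), and another, with 63.7 to 82.2 and 53.4 to 78.1, gave 0.17 ± 0.16 (SE) and did not pass (limma, adjusted p = 0.50). That last probe set is the one left when probe sets that may detect related transcripts are set aside, and the call of Fgfr1 is lost with it. The mean of the 3 gave 0.71 and a call.

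Fgfr2, the receptor of epithelia and trophoblast, had 91.1, 121 and 144 in the Jmjd2b knockdown arrays and 40.5, 104 and 72.5 in the control arrays. The groups overlapped, and the difference of 0.65 had an interval of 0.08 to 1.23 before adjustment over all genes (limma, adjusted p = 0.096). Without control array 2 it was 0.91 and passed (limma, adjusted p = 0.029). A second, dimmer probe set of Fgfr2 gave 0.16 ± 0.16 (SE). The third, dim on all of these arrays, gave 0.34 ± 0.15 (SE), and neither passed (limma, adjusted p = 0.54 and 0.15). Fgfr3 had 79.4, 116 and 99.4 in the knockdown and 126, 116 and 106 in the control, a difference of -0.22 (interval -0.58 to 0.14). Its second, dimmer probe set went the other way, at 0.28 ± 0.28 (SE), and did not pass (limma, adjusted p = 0.55). Fgfr4 was the dimmest member, with 20.7, 23.0 and 27.6 in the knockdown and 35.4, 39.3 and 40.9 in the control. Its arrays did not overlap, but the difference of -0.46 (interval -0.80 to -0.12) missed the threshold (limma, adjusted p = 0.053). It passed with the replicate number as a block (limma, adjusted p = 0.0498), without Jmjd2c knockdown array 1 and without array 2, where its adjusted p was 0.024 each time. The other 4 probe sets of Fgfr4 had means under 16 over the 8 arrays and did not pass. Without overlap between the groups were 7 of the 10 members, 5 higher and 2 lower in the knockdown. Of all genes 44.8% had such a separation (21.0% higher and 23.8% lower).

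**Figure D1:**
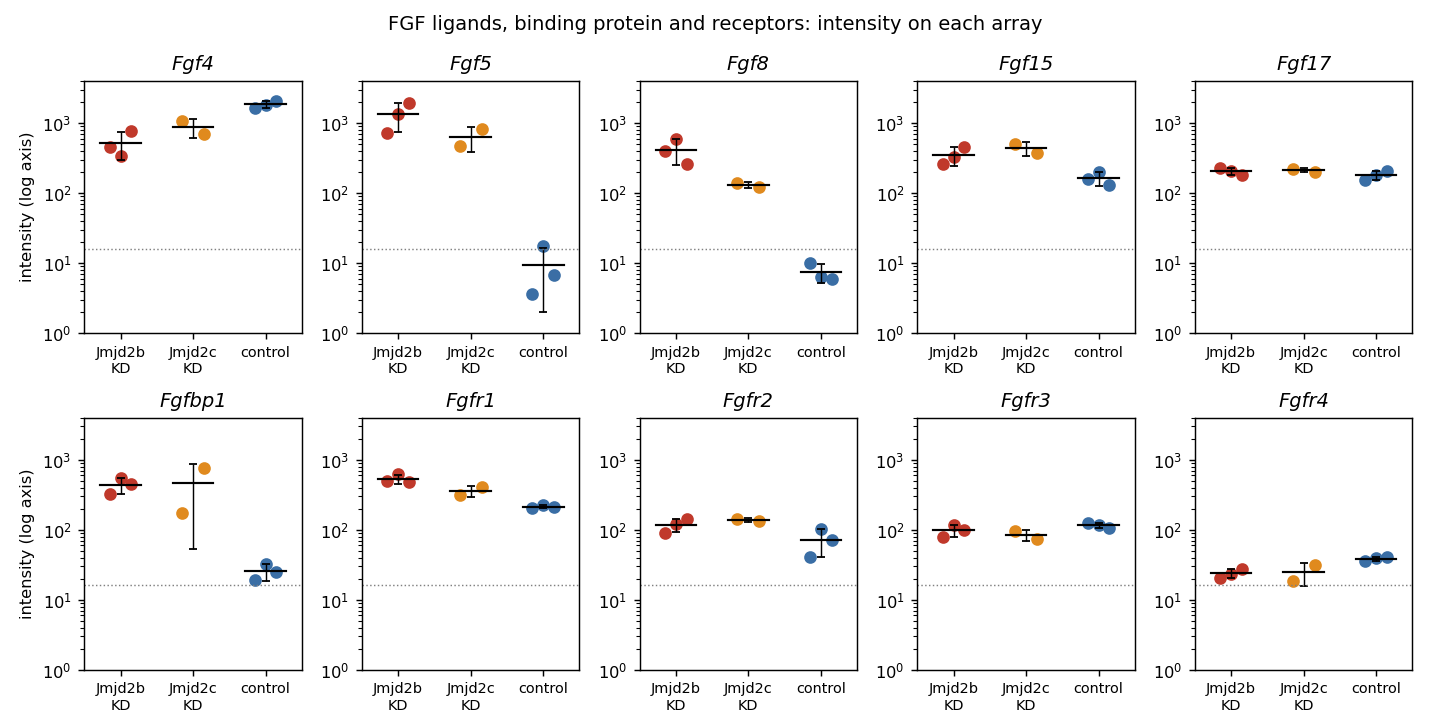
Intensity (log axis) of the 10 genes on each array, with the Jmjd2b knockdown (red, n = 3), the Jmjd2c knockdown (orange, n = 2) and the control (blue, n = 3). Points are arrays, long bars are group means, error bars are SD and the dotted line marks an intensity of 16. Control arrays of Fgf5 and Fgf8 lie near or below the dotted line, while Fgf4 is highest in the control.

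The Jmjd2c hairpin was then set against the control in the same way. Again Fgf5, Fgf8, Fgf15, Fgfbp1 and Fgfr1 rose and Fgf4 fell: 5 of 10 members up and 1 of 10 down, where 4.31% of all genes were called up and 5.28% down (9.59% in either direction). The median change of the members was 0.78, beside -0.02 over all genes. Both comparisons use the same 3 control arrays, so the calls are not independent, and their values are only set side by side.

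Fgf4 had 1074 and 694 in Jmjd2c knockdown arrays 1 and 2, below the 1651 to 2062 of the control arrays, and its mean was 47.7% of the control mean. The change of -1.08 ± 0.30 (SE) stood at the threshold (limma, adjusted p = 0.0485). This call was fragile: it was lost in 12 of 20 alternatives, among them leaving out control array 1 (-1.16), 2 (-1.08) or 3 (-1.0), Jmjd2b knockdown array 1 (-1.08) or Jmjd2c knockdown array 2 (-0.77). With array type as a block the value was -1.41 and passed, and within the no-floor type it was -1.24 (limma, adjusted p = 0.33).

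Fgf5 had 466 and 821 in the Jmjd2c knockdown arrays, both far above the 3.57 to 17.5 of the control. The change was 4.69 ± 0.39 (SE; limma, adjusted p = 0.0008), again the largest of all genes in size. Under the block it was 4.80, and within the no-floor type, which holds 1 control array, it was 4.80 without passing (limma, adjusted p = 0.15). Fgf8 had 141 and 121, above the 6.0 to 10.1 of the control, a change of 2.65 ± 0.28 (SE; limma, adjusted p = 0.0019), with 2.98 under the block and 2.74 within the no-floor type (adjusted p = 0.15). It was 3.99 with a pseudocount of 1 and 1.45 with 64, and Fgf5 was 2.91 for the mean of its probe sets. Fgf15 had 504 and 369, above the 132 to 203 of the control. Its mean was 2.66 times the control mean and its change 1.33 ± 0.25 (SE; limma, adjusted p = 0.012), with 1.44 under the block, 1.60 within the no-floor type (adjusted p = 0.25) and, without control array 3, 1.2 and no call (limma, adjusted p = 0.057). Fgf17 had 224 and 202, within reach of the 154 to 204 of the control, and a difference of 0.23 (interval -0.14 to 0.60). Its second, dimmer probe set had 115 and 88.4, above the 38.9 to 69.8 of the control. The change there was 0.75 ± 0.22 (SE) and did not pass among all probe sets (limma, adjusted p = 0.064).

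Fgfbp1 differed most between the 2 Jmjd2c knockdown arrays, with 175 and 765, above the 18.9 to 32.8 of the control. Its change was 3.23 ± 0.47 (SE; limma, adjusted p = 0.0052), with 3.41 under the block and 3.25 within the no-floor type (adjusted p = 0.25). Without Jmjd2c knockdown array 1 it was 4.25 and without array 2 it was 2.22, so the size rests on which array is used. In Kdm4c, the hairpin target, array 1 had 142 and array 2 had 469.

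Fgfr1 had 316 and 409 in the Jmjd2c knockdown arrays, above the 207 to 225 of the control. The change of 0.70 ± 0.16 (SE; limma, adjusted p = 0.026) was lost in 9 of 20 alternatives, including those without control array 1 (0.68), 2 (0.73) or 3 (0.70) and without Jmjd2c knockdown array 2 (0.52). It was 0.82 under the block and 0.71 within the no-floor type (adjusted p = 0.37). The other 2 probe sets of Fgfr1 gave 0.23 ± 0.18 and 0.16 ± 0.17 (SE) and did not pass, nor did the mean of the 3 (0.37). Fgfr2 had 144 and 132, both above the 40.5 to 104 of the control, but its difference of 0.87 (interval 0.22 to 1.51) did not pass (limma, adjusted p = 0.091) unless control array 2 was left out (1.12; adjusted p = 0.041). The dimmer probe sets of Fgfr2 gave 0.17 ± 0.18 and 0.20 ± 0.17 (SE) and did not pass. Fgfr3 had 95.5 and 73.1 with a difference of -0.40 (interval -0.81 to 0.00), and Fgfr4 had 18.3 and 31.3 with a difference of -0.44 (interval -0.82 to -0.06). Neither passed (limma, adjusted p = 0.21 and 0.15). Without overlap between the Jmjd2c knockdown and the control were 9 of the 10 members, 6 higher and 3 lower in the knockdown. Of all genes 38.6% had such a separation (17.4% higher and 21.2% lower).

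No control array lies in the set that shares values with the Jmjd2c knockdown arrays. An alternative chosen after seeing the data took these sets as a block. In it the 3 floor arrays, which are not linked by identical values, were put together as 1 level. Fgf8 was then the 1 member still called (3.55, limma adjusted p = 0.041), and over all genes 5 were called up and 4 down. Fgf5 then had 3.82 (limma, adjusted p = 0.065), Fgf4 -2.09 (0.072), Fgfbp1 3.17 (0.21), Fgfr1 0.90 (0.23) and Fgf15 0.77 (0.34), each with the sign it had without the block. For the Jmjd2b knockdown all 6 calls were kept with the sets as a block.

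**Figure D2:**
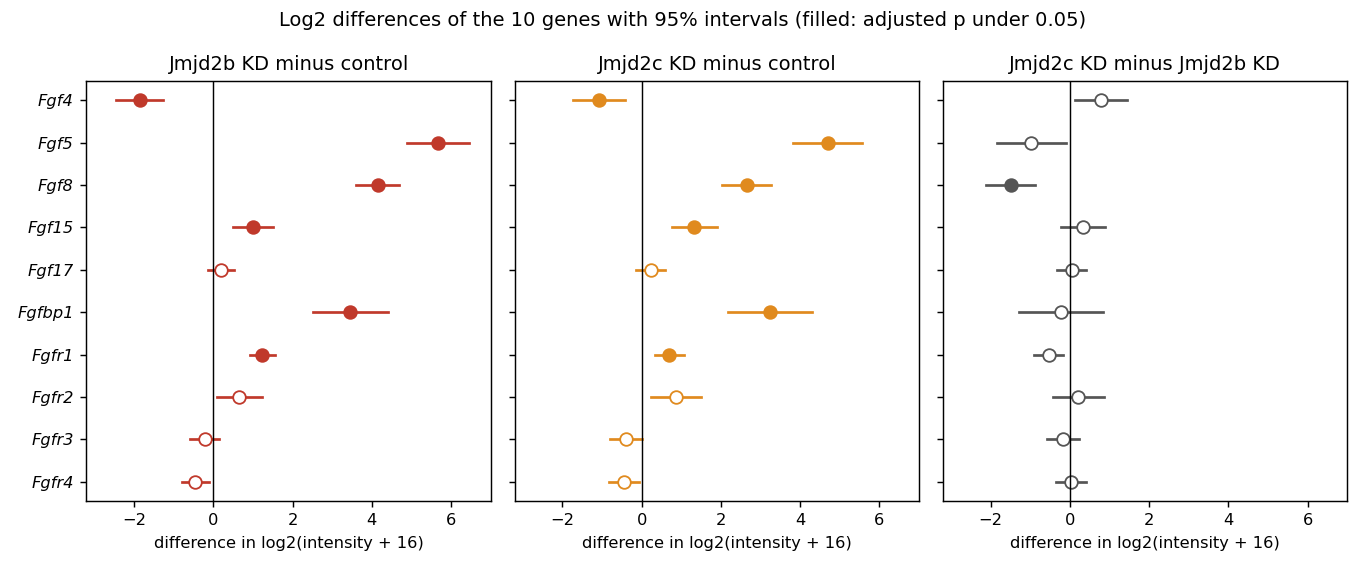
Difference in log2(intensity + 16) of each gene (points) with 95% intervals (lines) in the 3 comparisons, 1 panel each. Filled points passed at an adjusted p under 0.05: 6 genes in each knockdown against the control and Fgf8 alone between the knockdowns.

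The third comparison set the knockdowns against each other, which tests directly whether a gene's change differs between them. Fgf8 passed: 141 and 121 in the Jmjd2c knockdown arrays lay below the 263 to 597 of the Jmjd2b knockdown arrays, with a difference of -1.49 ± 0.28 (SE; limma, adjusted p = 0.0495). Across all genes 0.693% were called in this comparison (0.203% up and 0.489% down). The call stood at the threshold and was lost in 15 of 20 alternatives. Leaving out 1 array lost it for control array 1, 2 or 3 (-1.49 each), Jmjd2b knockdown array 1 (-1.49) or 2 (-1.21) and Jmjd2c knockdown array 2 (-1.39). With array type as a block it was -1.33 (limma, adjusted p = 0.11) within the no-floor type -1.21 (adjusted p = 0.65) and with sets of arrays as a block -0.93 (adjusted p = 0.34).

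The other members did not pass between the knockdowns, and their intervals show what sizes the data allow. Fgfr1 had a difference of -0.54 (interval -0.90 to -0.18) without overlap between the arrays. With Fgf8 that is 2 of 10 members without overlap, both lower in the Jmjd2c knockdown, and 27.1% of all genes had none (13.4% higher and 13.7% lower). Fgf4 had 0.78 (0.12 to 1.44) and Fgf5 -0.98 (-1.85 to -0.11), intervals that leave out 0 before the adjustment (limma, adjusted p = 0.29 and 0.32). For Fgf15 the difference was 0.33 (-0.23 to 0.89), for Fgf17 0.04 (-0.32 to 0.41), for Fgfr2 0.21 (-0.43 to 0.85), for Fgfr3 -0.18 (-0.59 to 0.22) and for Fgfr4 0.02 (-0.36 to 0.40). Fgfbp1 had -0.22 (-1.28 to 0.84), which was 0.79 without Jmjd2c knockdown array 1 and -1.24, with a call, without array 2 (limma, adjusted p = 0.048).

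Ordered by level, Fgf5, Fgf8 and Fgfr1 were highest in the Jmjd2b knockdown, next in the Jmjd2c knockdown and lowest in the control. Fgf4 ran in the reverse order. For all 4 the Jmjd2c knockdown differed from the control by the test, and between the knockdowns the test was passed for Fgf8. Fgf15, Fgf17 and Fgfr2 had their highest mean in the Jmjd2c knockdown, next to a Jmjd2b knockdown mean that did not differ from it by the test. For Fgfbp1 the order of the knockdowns is not settled, since the mean intensity was 469.7 in the Jmjd2c knockdown and 444 in the Jmjd2b knockdown, while the difference of the log2 values was -0.22. Fgfr3 and Fgfr4 had their highest mean in the control, and no pair of groups differed by the test.

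**Figure D3:**
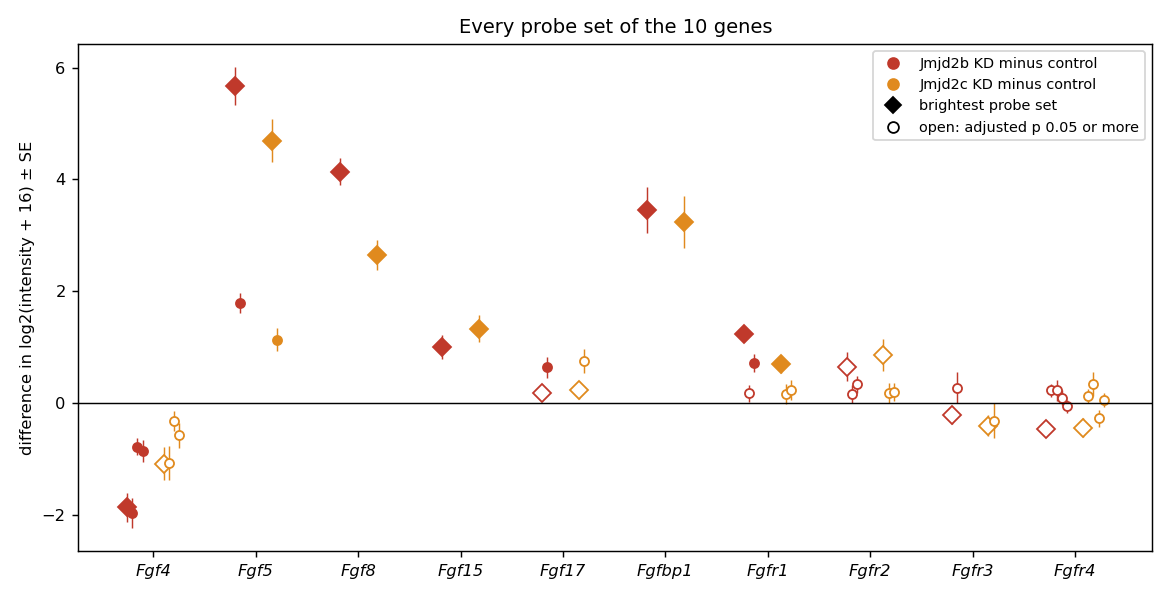
Difference in log2(intensity + 16) with SE for each of the 24 probe sets of the 10 genes, against the control, in the Jmjd2b knockdown (red) and the Jmjd2c knockdown (orange). Diamonds are the brightest probe set of a gene, and filled points passed over all 34945 probe sets. All 4 probe sets of Fgf4 lie below 0 and both of Fgf5 above it, while those of Fgfr1 range from 0.17 to 1.24 in the Jmjd2b knockdown.

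Adjusted over all probe sets, 5 members had a probe set that rose in the Jmjd2c knockdown, and none of the 4 Fgf4 probe sets passed there (-1.08, -1.07, -0.32 and -0.57, with the brightest at a limma adjusted p of 0.052). The brightest Fgf4 probe set and the next one correlated at 0.999 across the 8 arrays, and both carry the same target sequence record in the platform annotation, as does the dimmest of the 4.

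Genes of the rest of the FGF pathway were taken from 5 lists chosen with earlier results of these data known, and their counts stand beside the shares of all genes called, which were 11.6% up and 12.9% down in the Jmjd2b knockdown and 4.31% up and 5.28% down in the Jmjd2c knockdown. Of the 17 other FGF ligands, 2 rose and 1 fell in the Jmjd2b knockdown, and likewise 2 and 1 in the Jmjd2c knockdown. Fgf13, an intracellular FGF relative that binds sodium channels and not the receptors, averaged 522 in the Jmjd2b knockdown, 183 in the Jmjd2c knockdown and 79.1 in the control, with changes of 2.5 ± 0.22 and 1.09 ± 0.25 (SE). Between the knockdowns it fell by 1.41 on the log2 scale (limma, adjusted p = 0.045). Fgf11, another intracellular relative, changed by -0.77 ± 0.19 and -0.84 ± 0.21, Fgf14 by 0.54 ± 0.16 in the Jmjd2b knockdown, and the secreted ligand Fgf18 by 1.36 ± 0.30 in the Jmjd2c knockdown (its value was 0.50 ± 0.27 in the Jmjd2b knockdown). A group mean above the median of all genes was reached by 9 of the 10 members and 2 of these 17 genes. Since the members were also chosen with earlier results known, this contrast is not a test.

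Among proteins that bind FGFs or their receptors at the cell surface, Gpc4 and Flrt3 rose in both knockdowns. Of 15 co-receptors and receptor partners 5 rose and 0 fell in the Jmjd2b knockdown, and 2 rose and 0 fell in the Jmjd2c knockdown, with median changes of 0.18 and 0.15 (over all genes -0.03 and -0.02). The glypican Gpc4, a membrane protein that carries heparan sulfate, changed by 2.11 ± 0.19 and 1.63 ± 0.22 (SE). Flrt3, a membrane protein that binds FGF receptors, changed by 1.28 ± 0.14 and 0.62 ± 0.16, and Gpc6 by 0.77 ± 0.14 in the Jmjd2b knockdown. Of 11 measured genes that build or edit heparan sulfate 4 rose and 0 fell in the Jmjd2b knockdown, and 3 rose and 0 fell in the Jmjd2c knockdown, with medians of 0.35 and 0.24. Hs6st2, which adds 6-O-sulfate, averaged 848 in the Jmjd2b knockdown, 219 in the Jmjd2c knockdown and 25.3 in the control (changes of 4.32 ± 0.41 and 2.58 ± 0.46). Sulf1, which removes 6-O-sulfate, averaged 1962 in the Jmjd2b knockdown, 1572 in the Jmjd2c knockdown and 379 in the control (2.33 ± 0.21 and 1.98 ± 0.24), and Hs2st1, which adds 2-O-sulfate, changed by 1.03 ± 0.16 and 0.78 ± 0.18.

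The signal transducers had median changes of 0.17 in the Jmjd2b knockdown and 0.11 in the Jmjd2c knockdown. Of 14 measured signal transducers 3 rose and 2 fell in the Jmjd2b knockdown, and 0 passed in the Jmjd2c knockdown by limma, where 2 had an unadjusted p under 0.05. The kinase Map2k2 (MEK2) changed by 0.66 ± 0.11 (SE), the RAS activator Sos1 by 0.60 ± 0.13 and the phospholipase Plcg1 by -0.47 ± 0.11 in the Jmjd2b knockdown. Of 14 measured feedback inhibitors and targets of ERK 7 rose and 0 fell in the Jmjd2b knockdown, and 2 rose and 0 fell in the Jmjd2c knockdown, with medians of 0.42 and 0.17. The ERK phosphatase Dusp4 changed by 1.79 ± 0.18 and 1.19 ± 0.20, Il17rd (Sef), an inhibitor of FGF signalling, by 1.90 ± 0.24 and 1.61 ± 0.26, and Spred3 by 1.90 ± 0.27 in the Jmjd2b knockdown (0.38 ± 0.30 in the Jmjd2c knockdown, without a call). The ERK-responsive transcription factor Etv5 had 0.06 ± 0.10 and 0.17 ± 0.11 and passed in neither. Etv5 was singled out after its values were seen.

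**Figure D4:**
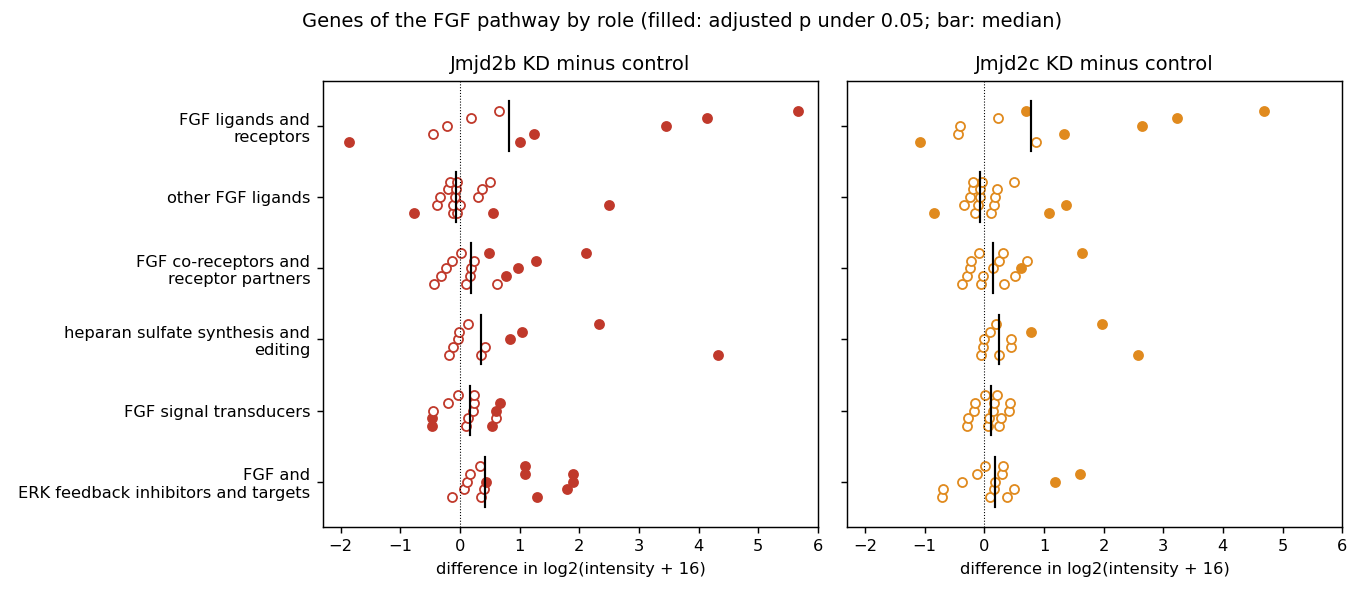
Difference in log2(intensity + 16) against the control for every measured gene of 6 lists, by role (rows), in the Jmjd2b knockdown (left) and the Jmjd2c knockdown (right). Filled points passed at an adjusted p under 0.05 and bars are list medians. The other FGF ligands have a median near 0 (-0.07 and -0.06), while the 10 members have 0.83 and 0.78. Members and lists were chosen with earlier results of these data known, so this contrast is not a test.

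Neighbours on the chromosome were looked up in the RefSeq table (GRCm38.p6) as the nearest measured gene on each side. Fgf3, Fgf4 and Fgf15 lie in a row on chromosome 7, with 18.04 kb between Fgf3 and Fgf4 and 31.3 kb between Fgf4 and Fgf15. In the Jmjd2b and Jmjd2c knockdowns Fgf3 had differences of -0.39 ± 0.16 and -0.19 ± 0.18 (SE), Fgf4 fell, Fgf15 rose, and LTO1 beyond it had 0.20 ± 0.13 and 0.31 ± 0.14, so that within this row Fgf4 and Fgf15 were called in opposite directions. Of the 18 neighbours that are not members, 3 rose in the Jmjd2b knockdown and 0 passed in the Jmjd2c knockdown by limma, where 6 had an unadjusted p under 0.05. Of all genes 11.6% were called up in the Jmjd2b knockdown, so nothing is read from this count. The 3 were Prom1 beside Fgfbp1 (1.87 ± 0.27), Xpo7 beside Fgf17 (0.41 ± 0.09) and 4933429K18Rik beside Fgf8 (0.60 ± 0.19), the last with low intensities of 11.4 to 23.96 in the knockdown and 1.86 to 9.45 in the control.

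The genes whose pattern over the 8 arrays was most like that of a member were sought among 8883 genes of above-median mean, by Pearson's r of log2 values. The arrays form 3 groups, so such an r mostly describes the group means. For Fgf5 they were Polr2d (0.998), Lrp2 (0.997) and Gpc4 (0.993), for Fgf8 Surf6, Tceal8 and Rbm43 (0.989 to 0.990), and for Fgfbp1 Srd5a3, Smco4 and Yap1 (0.995 to 0.996). Fgfr1 was matched by Spin2c (0.994), Pmm2 (0.993) and Sac3d1 (0.991), Fgf15 by Spop (0.981), Cep43 (0.977) and Alkbh6 (0.972), and Fgf4 by Myh14 (0.993), Uhrf1 (0.993) and Cdyl2 (0.990). For Fgf17, Fgfr2 and Fgfr3 the closest genes were Slc30a6 (0.931), Sae1 (0.979) and Aanat (0.955).

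Markers of cell states were counted in the same way, in lists chosen with earlier results of these data known. Of all genes 11.6% were called up and 12.9% down in the Jmjd2b knockdown. In the Jmjd2c knockdown the shares were 4.31% up and 5.28% down. Counts near these shares are not read as a change of a cell state. Of 6 ES cell markers 4 fell in the Jmjd2b knockdown and 1 in the Jmjd2c knockdown, with summed intensities of 36379 to 39886 in the Jmjd2b knockdown, 40177 to 40809 in the Jmjd2c knockdown and 46760 to 47401 in the control, and Pou5f1 (Oct4) had 7821, 7473 and 7829 on average in that order. Of 7 primed epiblast markers 7 rose in the Jmjd2b knockdown and 3 in the Jmjd2c knockdown, and their sums were 11960 to 22588, 6916 to 13540 and 3205 to 4757. Of 7 measured primitive streak and mesoderm markers 5 and 2 rose, with sums of 683 to 2055, 491 to 523 and 215 to 351. Of 9 feeder fibroblast markers 1 rose and 2 fell in the Jmjd2b knockdown and 2 fell in the Jmjd2c knockdown, and they summed to 355 to 399, 388 to 451 and 632 to 677, with Postn under 16 on every array. These sums mostly follow the genes that fell, Pdgfrb (means of 137, 198 and 378) and Thy1 (36.0, 35.3 and 114). The collagen gene Col1a1 rose in the Jmjd2b knockdown (55.9, 25.7 and 12.5), and Col1a2, Col3a1 and Dcn passed in neither knockdown. The sums are therefore not read as a change in feeder cells. For primitive endoderm 2 of 9 rose and 1 fell in the Jmjd2b knockdown and 1 rose in the Jmjd2c knockdown, for neural ectoderm 3 and 1 of 7 rose, and for trophectoderm 5 of 8 rose and 1 fell, and 1 rose and 1 fell. The sums in the same order of groups were 816 to 908, 611 to 1053 and 714 to 799 for primitive endoderm, 954 to 1575, 838 to 1255 and 761 to 893 for neural ectoderm, and 5842 to 9418, 1431 to 2178 and 1235 to 1549 for trophectoderm. Most of the trophectoderm sums came from the keratins Krt8 (means of 2695, 479 and 438) and Krt18 (3314, 898 and 690). Elf5 and Hand1 passed in neither knockdown, and Esx1 fell in both. Eomes stands in the trophectoderm list and in the primitive streak list, so their counts are not separate. The part of a changed mix of cell states in the FGF values was not tested.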

How the data were processed

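Total RNA of 8 samples was labelled as biotinylated cRNA and hybridised to 1 Affymetrix array each, per the labels' protocols. The deposited table holds 1 linear intensity for each probe set and sample. The sources used here do not give the authors' probe summary, background correction or scaling. Groups and replicate numbers come from the sample titles. The members and gene lists were chosen with earlier results of these data known. The members were all named, other lists gave up to 3 called genes with the smallest p per comparison, and other names followed nearness on the chromosome or in pattern.

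Symbols came from the platform annotation. Of 45101 probe sets 34945 had exactly 1 symbol, 932 several and 9160 none listed, and 64 were controls. Values were converted to log2(intensity + 16) without further normalization or filtering, so changes of dim genes are understated. Group means were fitted in limma 3.58.1 (R 4.3.3) with an intensity trend, two-sided. Intervals are 95% from the moderated fit. The fit was also run on simulated data, with changes placed in 200 genes. All of these were brighter in the control than Fgf5, Fgf8 and Fgfbp1 were there. Array types and shared values were not simulated, so that run does not bear on the calls of these 3 members or on those array differences. Python 3.11.15 with pandas 2.3.3 made the tables and matplotlib 3.10.9 the figures.

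Same-numbered Jmjd2b knockdown and control arrays deviated together from their group means (correlations of 0.176, 0.111 and 0.116 across genes), which the labels do not explain. They were treated as paired in an alternative fit. Same-numbered Jmjd2c knockdown arrays had 0.0408 and 0.0633 with controls. Between the knockdowns, same-numbered arrays had -0.0597 and 0.142. The differently numbered Jmjd2b knockdown 3 and Jmjd2c knockdown 1 had 0.167, and Jmjd2b knockdown 3 and Jmjd2c knockdown 2 had -0.167. In a group of 2 arrays the deviations mirror each other, so a value with 1 array is always minus that with the other. The values with Jmjd2c knockdown arrays thus cannot be set beside those above, and nothing on pairing is read from them. Alternatives covered the pseudocount, a filter on dim genes, quantile normalization, the choice of probe sets, the samples and trend in the fit, replicate and array type as blocks, and each array left out. Leaving out a Jmjd2c knockdown array leaves 1, assumed to vary like the other groups.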

Additional observations from a re-analysis of the deposited data

How the results depend on the processing

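The number of arrays limits all values. In the Jmjd2b knockdown the calls of Fgf5 and Fgf8 held in all 21 alternatives, those of Fgf4 and Fgfbp1 in 20, Fgfr1 in 19 and Fgf15 in 18. In the Jmjd2c knockdown, with 20 alternatives, Fgf8 held in 19, Fgf5 and Fgfbp1 in 18, Fgf15 in 17, Fgfr1 in 11 and Fgf4 in 8. Where other settings give other values the cause was not tested. For the paired arrays, the replicate block added the call of Fgfr4 in the Jmjd2b knockdown (2 members down in place of 1) and changed no other call there. Under the same block the Jmjd2c knockdown had 0 members down (Fgf4 -0.88, limma, adjusted p = 0.051).

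Members down in the Jmjd2b knockdown were also 2 with a pseudocount of 64, with only those 2 groups in the fit and without the trend. Within the no-floor arrays, which have fewer samples, 2 members rose and 0 fell by limma (over all genes 70 up and 32 down). Within the floor arrays 570 genes rose and 608 fell, and with sets of arrays as a block 1367 rose, against 2105 and 2341 in the fit reported. In the Jmjd2c knockdown 0 members were down with a pseudocount of 1, the mean of probe sets, probe sets free of related transcripts, no trend, within the no-floor arrays or with sets as a block. Genes up there were 785 and down 960, but 363 and 513 with 2 groups in the fit, 409 up with array type as a block, 0 and 0 within the no-floor arrays (0 members up) and 5 and 4 with sets as a block (1 member up). Between the knockdowns 37 genes were up and 89 down, but 24 and 56 with a pseudocount of 1, 23 up with probe sets free of related transcripts, 0 and 2 with 2 groups in the fit, 14 and 52 without the trend, 0 and 6 with array type as a block, 0 and 0 within the no-floor arrays and 1 and 4 with sets as a block. The Fgf8 call, the 1 member down, was lost (0) in each of these and with quantile normalization or the mean of probe sets. The counts of 0 rest on limma, where 2377 genes and 4 members had an unadjusted p under 0.05 between the knockdowns in the fit reported.

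With 1 array left out, Jmjd2b knockdown counts were 1342 to 2656 genes up and 1293 to 2974 down (members 4 to 6 and 1 to 2), Jmjd2c knockdown counts 222 to 1552 and 247 to 1383 (members 3 to 5 and 0 to 1), and counts between the knockdowns 0 to 384 and 2 to 474 (members 0 and 0 to 1). Signs turned for values near 0 that had no call. With the mean of probe sets these were 0.0287 for Fgfr3 and 0.0084 for Fgfr4 in the Jmjd2b knockdown, and -0.0456 for Fgfr4 between the knockdowns. The others lay between the knockdowns: Fgfr2 at -0.14 with probe sets free of related transcripts, Fgf17 at -0.0016 with array type as a block, and Fgf15 at -0.0834, Fgfr2 at -0.0574 and Fgfr4 at -0.11 with sets as a block. With 1 array left out, values between the knockdowns ran from -0.208 to 0.253 for Fgfr4, from -0.0394 to 0.117 for Fgf17 and from -1.24 (called without Jmjd2c knockdown array 2) to 0.79 for Fgfbp1.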
